A study of Mus musculus with 2 samples.

Results

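The genes of MHC class II antigen presentation were followed in macrophages sorted from the small intestine of wild-type and Ccr2-deficient mice. The 9 genes were chosen by name out of 27998 in the matrices: H2-Aa, H2-Ab1, H2-Eb1, H2-DMa, H2-DMb1, H2-DMb2, H2-Oa, Cd74 and Ciita. All 9 were detected in both libraries. Of these, 8 reached the minimum of 10 CPM (UMIs per 1000000, mean of the libraries) used for ratios, and H2-Oa did not. Cells were measured by droplet sequencing of transcript 3′ ends, in which every captured molecule carries a unique molecular identifier (UMI). The wild-type cells came from male C57BL/6J mice bought from Janvier and were run in 2 lanes. The Ccr2-/- cells came from the JAX strain #:004999, bred in-house. The labels give no age for either group and no sex for the knockout animals. In each group 3 to 4 intestines were pooled into 1 library, so there is no replicate, no test between genotypes was possible, and genotype cannot be told apart from source, breeding and library. Intervals are 95% and cover counting error alone. Surface MHC class II was itself a gate of the sort, together with CD11b and CD64, and cells positive for Ly6C or for T cell, B cell, eosinophil or neutrophil markers were discarded. The sort thus selected for class II protein.

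MHC class II molecules are pairs of an alpha and a beta chain that carry peptides of ingested proteins to the cell surface for recognition by CD4 T cells. H2-Aa and H2-Ab1 encode the chains of the mouse I-A molecule and H2-Eb1 encodes the beta chain of I-E. Cd74, the invariant chain, escorts new pairs to endosomes and blocks their groove, proteases trim it, and H2-DM (H2-DMa with a DMb chain) exchanges the last fragment for peptide, while H2-O restrains H2-DM. Ciita is the transactivator that switches the whole group on. Intestinal macrophages carry much class II, and in the adult gut many of them arise from monocytes that enter the tissue through the chemokine receptor Ccr2 and acquire class II as they mature.

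Ciita binds no DNA by itself but sits on factors held at short promoter elements called the X and Y boxes. The sequences below are shown because these elements are the ones through which Ciita is known to act. Of the 8 members looked up in the RefSeq promoter table (GRCm38.p6), 6 were found, with 7 windows. H2-Ab1 and Ciita had no entry, and Cd74 was not looked up. The 250 bases before each start were searched on both strands for TGATTGG, the core of the Y box, and for AACNGATG, a part of the X box. The letters of the second motif were chosen after the promoters had been seen. The first motif was present in 5 of the 6 genes and the second in 3. Among all 32851 windows in the table, 7.23% held the first motif, 1.98% the second and 0.146% both. The matches are a description of letters and not of binding. They are printed 5′ to 3′ on the strand of the gene, with matched letters in capitals.
H2-Aa (minus strand, chr17:34287859-34287918): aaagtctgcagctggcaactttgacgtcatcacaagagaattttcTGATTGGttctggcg
H2-Eb1 (plus strand, chr17:34305761-34305820): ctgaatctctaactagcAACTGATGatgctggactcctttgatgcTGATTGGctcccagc
H2-DMb1 (plus strand, chr17:34153083-34153142): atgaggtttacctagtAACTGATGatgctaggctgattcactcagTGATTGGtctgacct
H2-DMb2 (plus strand, chr17:34145112-34145171): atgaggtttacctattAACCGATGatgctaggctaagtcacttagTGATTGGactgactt
H2-Oa (plus strand, chr17:34092289-34092348): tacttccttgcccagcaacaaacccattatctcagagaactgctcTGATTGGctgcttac
In the 3 genes with both motifs, 20 or 21 bases separated them (20 in H2-Eb1, 21 in H2-DMb1 and H2-DMb2). The Y box core began between 45 and 92 bases before the start. Neither window of H2-DMa held either motif. All 6 genes lie on chromosome 17, whereas Ciita lies on chromosome 16 (10480059 to 10528418, plus strand, GENCODE M21 on GRCm38).

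After a filter on cells (at least 200 genes and at most 10% mitochondrial UMIs), 3016 wild-type cells (median 6129 UMIs) and 2612 knockout cells (median 2439 UMIs) were kept. The lanes held 2109 and 907 cells, shared 5 barcodes, and are used below as a technical yardstick, not as replicates. The libraries shared 6 barcodes. Ccr2 itself stood at 331 CPM in wild type and 6.88 CPM in the knockout (6844 and 50 UMIs). Macrophage markers (8 of 8 detected in each library) summed to 14277 and 10716 CPM, and the neutrophil markers S100a8 and S100a9 were at 0. Red cell markers were at 761 CPM in wild type against 7429 CPM in the knockout, dissociation response genes at 3437 and 13860 CPM, and monocyte markers at 699 and 187 CPM. The red cell list also set the lanes apart, with 1078 CPM in lane 1 and 3.44 CPM in lane 2. Fibroblast markers were at 25.7 (lanes 31.6 and 11.6) and 230 CPM, endothelial markers at 54.1 and 173 CPM, plasma cell markers (3 of 4 genes used) at 1653 and 1787 CPM and epithelial markers at 201 and 203 CPM. An alternative given below took haemoglobin, mitochondrial and ribosomal genes out of the totals. Another kept cells with C1q and without a T cell, B cell, plasma cell, epithelial, fibroblast or endothelial signature. Beyond these, the part of these lists in the differences below was not tested. Dendritic cell and B cell markers, from cell types that also carry class II, were at 56.6 and 52.3 CPM in wild type and 28.2 and 49.96 CPM in the knockout.

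Class II transcripts took up a large part of the RNA of these cells and a smaller part in the knockout. Together the 9 genes made up 5.86% of all wild-type UMIs and 3.53% of all knockout UMIs, or 58603 CPM (58498 to 58707) and 35279 CPM (35142 to 35416), a log2 ratio of -0.73. Lane 1 had 54857 and lane 2 67540 CPM, which set lane 2 higher by 0.30 on the log2 scale. The knockout lay below both lanes. Over all genes past the minimum the median log2 ratio was 0.18. The median of the 8 members past the minimum was -0.66, and 7 of the 8 were lower in the knockout, 5 of them at least 1.5-fold. Of all 7401 genes past the minimum, 2789 were lower in the knockout. At least 1.5-fold lower were 12.5%, and at least 1.5-fold higher 23.6%. No member was at least 1.5-fold higher. Between the lanes none of the 8 differed by 1.5-fold, and of all genes 0.149% were at least 1.5-fold higher and 7.32% at least 1.5-fold lower in lane 2.

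**Figure D1:**
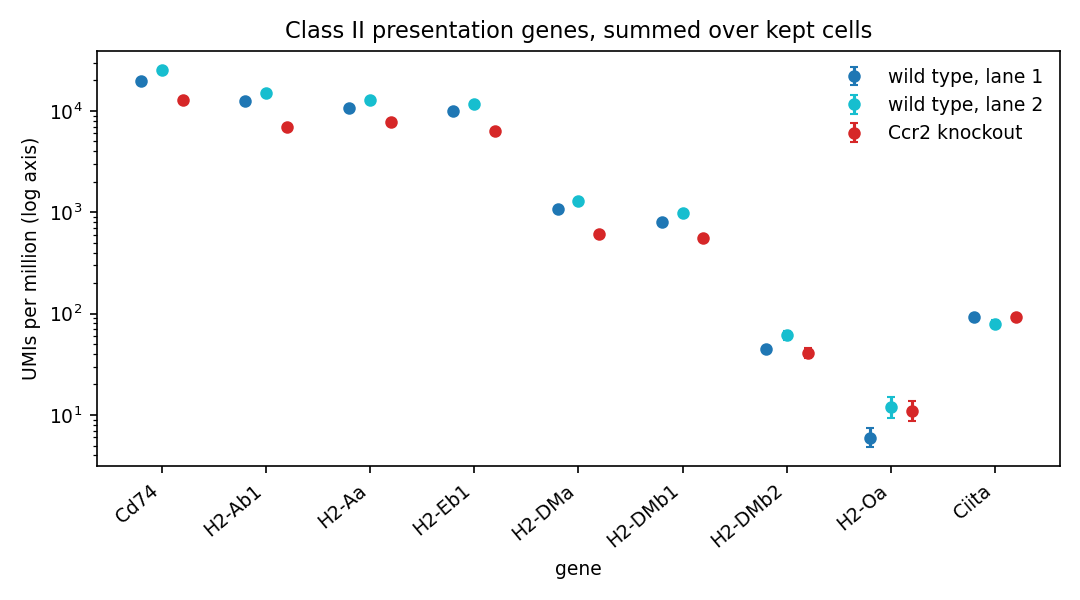
Level of each gene in CPM (log axis) in wild-type lane 1, wild-type lane 2 and the knockout library. Points are sums over kept cells and bars are 95% Poisson intervals, which are mostly smaller than the points. For the 6 genes from Cd74 to H2-DMb1 the knockout lies below both lanes, while the knockout value of Ciita, 91.7 CPM, lies between the lanes.

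Among the classical chain genes H2-Ab1, H2-Eb1 and H2-Aa, H2-Ab1 differed most. H2-Ab1 (ENSMUSG00000073421, chromosome 17, 34257689 to 34269419) had 12416 and 15139 CPM in the wild-type lanes and 6898 CPM in the knockout, a log2 ratio of -0.94 to the whole wild-type library (13220 CPM). H2-Eb1 (ENSMUSG00000060586, 34305867 to 34316674) had 9946 and 11796 CPM in the lanes and 6405 CPM in the knockout (log2 ratio -0.71). H2-Aa (ENSMUSG00000036594, 34282744 to 34287823) had 10591 and 12748 CPM in the lanes and 7840 CPM in the knockout, and its log2 ratio of -0.52 did not reach 1.5-fold. In all 3 genes the knockout lay below both lanes by more than the lanes differed from each other (0.27 for H2-Aa, 0.29 for H2-Ab1 and 0.25 for H2-Eb1 on the log2 scale).

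The invariant chain was the most abundant member. Cd74 (ENSMUSG00000024610) had 19879 and 25416 CPM in the lanes and 12826 CPM in the knockout, a log2 ratio of -0.75 to 21514 CPM in wild type. Cd74, H2-Ab1, H2-Aa and H2-Eb1 together gave 96.3% of class II UMIs in either library. By counts the order in wild type was Cd74, H2-Ab1, H2-Aa, H2-Eb1, H2-DMa, H2-DMb1, Ciita, H2-DMb2 and H2-Oa. In the knockout H2-Aa stood before H2-Ab1, and the rest of the order was the same. One UMI stands for one captured 3′ end, so these counts are not scaled to gene length, but capture can still differ between genes.

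Among the genes for peptide loading, H2-DMa was at 1080 and 1296 CPM in the lanes and at 604 CPM (586 to 622) in the knockout, with a log2 ratio of -0.92. H2-DMb1, its main partner by count, was at 802 and 993 CPM in the lanes and at 562 CPM (545 to 580) in the knockout (log2 ratio -0.61). The log2 difference between the knockout and the wild-type library thus exceeded that between the lanes for both genes (0.26 and 0.31). H2-DMb2 had only 1027 wild-type and 299 knockout UMIs, with 44.7 and 61.4 CPM in the lanes and 41.2 CPM (36.6 to 46.1) in the knockout. Its log2 ratio of -0.27 was smaller than the 0.45 between the lanes. H2-DMb1 and H2-DMb2 are near-identical neighbours, and the division of reads between them is uncertain. The inhibitor subunit H2-Oa was close to the limit of detection, with 5.97 and 12.0 CPM in the lanes and 11.01 CPM (8.73 to 13.7) in the knockout. Its partner gene H2-Ob was similarly rare (9.26 and 14.2 CPM in the lanes, 9.63 CPM in the knockout), and H2-Eb2 had 20 wild-type and 4 knockout UMIs.

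The level of the transactivator did not differ between the libraries in the way of its target genes. Ciita (ENSMUSG00000022504) had 93.6 CPM (88.7 to 98.7) in lane 1, 78.8 CPM (71.9 to 86.1) in lane 2 and 91.7 CPM (84.8 to 98.9) in the knockout. Its log2 ratio was 0.04, with a counting half-width of 0.13, and the lanes differed by -0.25. The lane with the higher class II level thus had the lower Ciita level. Among single cells thinned at random to 1000 UMIs each, the 208 wild-type cells with a Ciita UMI had 57.8 ± 22.7 UMIs of the other members (mean ± SD over cells), and the 2807 without one had 54.1 ± 21.8. Within lane 1 these means were 55.1 and 50.8, and within lane 2 66.96 (47 cells) and 61.5. In the knockout they were 33.7 ± 13.7 in 196 cells and 32.9 ± 13.9 in 2220 cells.

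The other genes of the pathway came from lists of regulators, lysosomal processing and surface turnover. Of 12 regulators, 11 passed the minimum. The other, Rfxank, was at 7.43 CPM in the knockout and 10.8 CPM in wild type (log2 ratio -0.48, with a counting half-width of 0.43). None of the 11 was lower in the knockout, beside 2789 of all 7401 genes past the minimum. At least 1.5-fold higher were 2, beside the 23.6% of all genes. These were the interferon-regulated factor Irf1 (204 against 106 CPM, log2 ratio 0.94) and the NF-Y subunit Nfya (38.4 against 23.0 CPM, 0.71). Irf8, a factor of the myeloid lineage, was at 580 against 389 CPM (0.58), and Rfx5, which binds the X box, at 24.8 against 17.3 CPM (0.49). The median of the regulators was 0.25, beside 0.18 for all genes. In cells with 2000 to 4000 UMIs 6 of the 11 were lower, among them Rfx5 (-0.22, with a counting half-width of 0.52). At least 1.5-fold higher was 1 (Irf1, 0.67). Of all 7452 genes past the minimum in this range, 3422 were lower and 1126 at least 1.5-fold higher.

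Of 7 processing genes all passed the minimum and 2 were at least 1.5-fold lower, beside the 12.5% of all genes. Ifi30, the thiol reductase that opens disulphide bonds of antigens, had 513 and 626 CPM in the lanes and 220 CPM in the knockout (log2 ratio -1.31). Ctss, the cathepsin that makes the last cuts in the invariant chain, had 2933 and 3168 CPM in the lanes and 1938 CPM in the knockout (-0.63). The other cathepsins, Ctsl (0.10), Ctsb (0.20) and Ctsd (0.51), and the endopeptidase Lgmn (0.35) and intramembrane protease Sppl2a (0.52), were not 1.5-fold different. The 3 genes of surface turnover were all higher in the knockout, beside 4612 of all 7401 genes past the minimum. Cd83, whose product stabilises class II at the surface, had 195 and 192 CPM in the lanes and 755 CPM in the knockout (1.95). The ubiquitin ligase March8, which targets class II for removal, had 20.8 CPM in wild type and 34.4 CPM in the knockout (0.70). March1, a ligase of the same kind, had 100.3 and 126 CPM (0.33).

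Wild-type cells carried more UMIs than knockout cells, and the class II share varied with the UMIs of a cell in both libraries. Cells were therefore compared in classes of UMIs per cell, which were chosen after the data had been seen. In cells with 1000 to 2000 UMIs the members had 28.0 of every 1000 UMIs in the knockout, 36.3 in lane 1 and 41.6 in lane 2. At 4000 to 6000 UMIs they had 40.7, 49.5 and 61.5, and at 6000 to 8000 UMIs 38.3 (81 cells), 59.1 and 71.0. The knockout was below both lanes in each of the 5 classes that held at least 50 knockout cells, with log2 ratios to wild type of -0.49, -0.28, -0.21, -0.38 and -0.70. Lane 2 was above lane 1 in every class by 0.20 to 0.32. The complement genes C1qa, C1qb and C1qc, macrophage products that are no part of the pathway, stood at 7.54 UMIs per 1000 in knockout and 7.82 in wild-type cells with 1000 to 2000 UMIs, at 9.43 and 11.5 in those with 4000 to 6000 UMIs, and at 8.73 and 13.6 in those with 6000 to 8000 UMIs. Their log2 ratio (knockout over wild type) was -0.64 in the last class, beside -0.70 for class II, and lay between -0.054 and 0.067 in the 3 classes below 4000 UMIs. Class II was highest at 4000 to 6000 UMIs in the knockout and at 8000 to 12000 UMIs in wild type (64.7), with 59.3 in wild-type cells of 12000 UMIs or more.

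**Figure D2:**
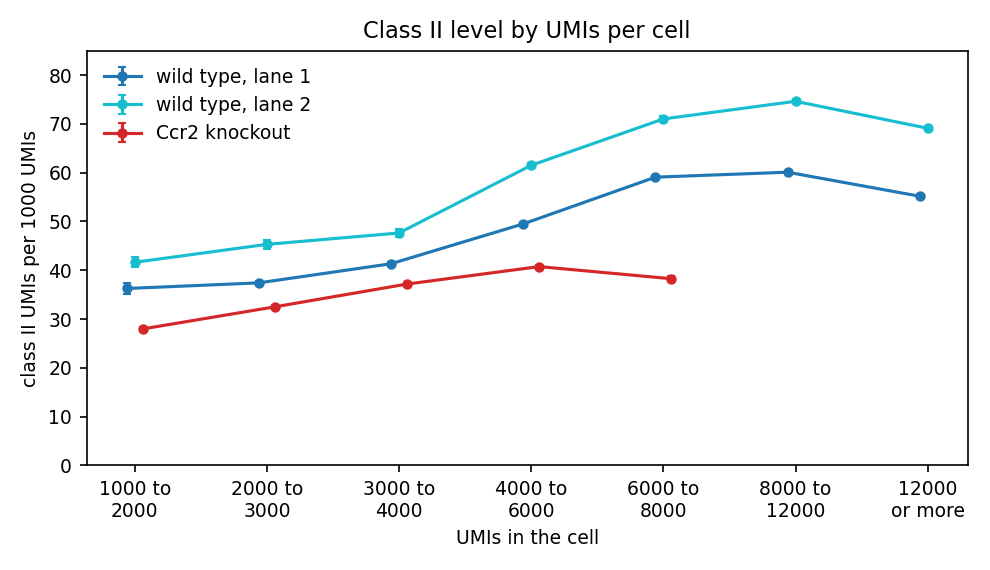
Class II UMIs per 1000 UMIs (sum over 9 genes, with 95% Poisson intervals) in cells grouped by their UMIs, for each wild-type lane and the knockout. The knockout is not drawn above 8000 UMIs, where it has 16 and 3 cells. The line of lane 2 runs above that of lane 1 and the knockout runs below both, with the widest gap at 6000 to 8000 UMIs.

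Over the range of 2000 to 4000 UMIs, where the medians were 2824 UMIs in 1051 knockout cells and 2940 UMIs in 713 wild-type cells, the summed class II level was 34.8 per 1000 in the knockout and 41.5 in wild type. The log2 ratio of -0.25 was then as large as the distance of 0.24 between the lanes. The median over the 8 members was -0.22, beside 0.05 for all 7452 genes past the minimum. Only H2-DMa remained at least 1.5-fold lower (-0.60), beside 10.9% of all genes. H2-Ab1 was at -0.50, H2-Eb1 at -0.30, H2-DMb1 at -0.24, H2-Aa at -0.21, Cd74 at -0.08 and Ciita at 0.22. The order among H2-Ab1, H2-Eb1 and H2-Aa was the same as over all cells, whereas nearly all of the difference in Cd74 was absent from this range. Cd83 (1.49) and Ifi30 (-0.75) kept their directions, with Ctss at -0.48. Lgmn (-0.096) and Ctsl (-0.17), higher in the knockout over all cells, were lower in this range. Of the 7 processing genes 4 were lower here and 3 higher, beside 3422 of all 7452 genes lower.

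The ratio of H2-Aa to H2-Ab1, which does not depend on the scaling of a library, differed between the libraries. The alpha chain gene gave 0.849 UMIs per UMI of the beta chain gene in wild type (0.853 in lane 1 and 0.842 in lane 2) and 1.14 in the knockout (1.12 to 1.15). Per class of UMIs per cell it ran from 1.11 to 1.21 in the knockout, and from 0.825 to 0.981 in lane 1 and 0.829 to 0.938 in lane 2. The knockout and the lanes did not overlap in any class. In single cells thinned to 1000 UMIs, H2-Aa exceeded H2-Ab1 in 54.5% of knockout cells and in 35.8% of wild-type cells, and was lower in 34.1% and 56.2%. H2-Eb1 per H2-Ab1 was 0.929 in the knockout and 0.794 in wild type (lanes 0.801 and 0.779), and H2-DMa per H2-DMb1 was 1.07 (1.03 to 1.12) and 1.33 (lanes 1.35 and 1.30). Cd74 per H2-Ab1, by contrast, changed with the UMIs of the cell, from 1.15 at 1000 to 2000 UMIs to 2.25 at 4000 to 6000 UMIs in the knockout.

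**Figure D3:**
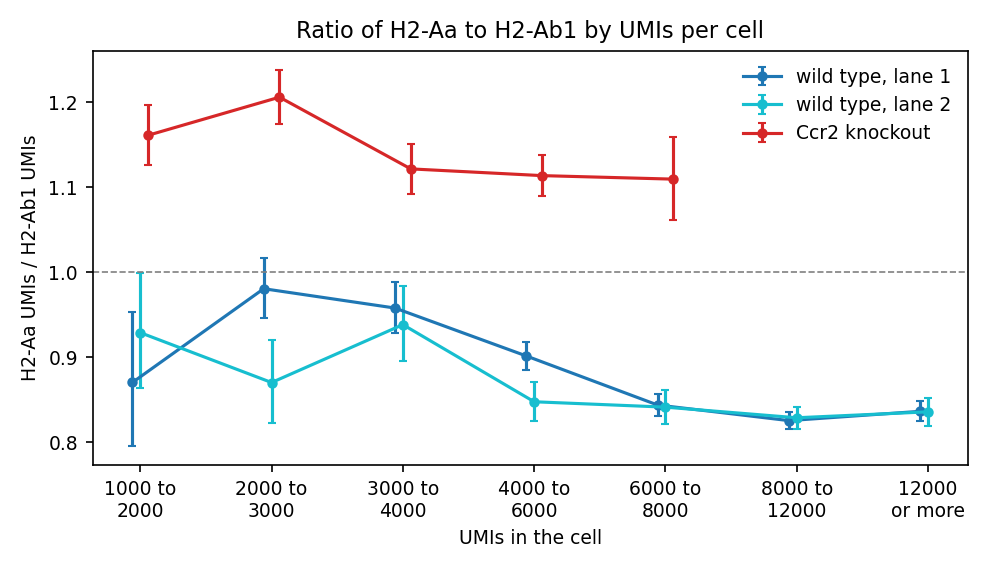
UMIs of H2-Aa divided by UMIs of H2-Ab1 in cells grouped by their UMIs, with 95% counting intervals, for each wild-type lane and the knockout. The dashed line marks equal counts. Knockout values lie between 1.11 and 1.21 and those of the lanes between 0.825 and 0.981.

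Class II transcripts were present in nearly every cell of a sort that had selected for class II protein, and the libraries differed in their amount. After thinning to 1000 UMIs (3015 wild-type and 2416 knockout cells, with 1 and 196 shallower cells left out), H2-Aa was found in 99.1% of wild-type and 97.3% of knockout cells. Without thinning the shares were 99.8% and 98.7%. H2-DMa was found in 62.7% (60.9% to 64.4%) and 40.9% (38.97% to 42.9%), against 94.7% and 65.6% without thinning. H2-DMb1 was found in 53.9% and 41.1% (91.9% and 67.6% without thinning). Ciita was found in 6.90% (6.02% to 7.86%) and 8.11% (7.05% to 9.27%) of thinned cells, and in 38.8% and 19.5% of cells without thinning, so that the order of the Ciita shares depended on depth. As a measure of free RNA, cells with T cell markers and at most 2 C1q UMIs had 1.801 class II UMIs per 1000 in wild type (3 cells, median 3528 UMIs) and 1.28 in the knockout (12 cells, median 1888.5 UMIs). H2-Aa was found in 66.7% and 41.7% of these cells and H2-DMa in 0% and 25%. All 9 genes summed thus lay far above this level in other cells, at 58.6 and 35.4 per 1000.

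Per thinned cell the class II sum was 54.4 ± 21.9 UMIs in wild type (51.2 ± 19.9 in lane 1 and 61.9 ± 24.5 in lane 2) and 33.0 ± 13.9 in the knockout (mean ± SD over cells). The medians were 51 and 32 UMIs, and the ranges from the 5th to the 95th percentile, 25 to 94 and 11 to 56, overlapped. At least 60 class II UMIs were found in 38.2% of the wild-type cells against 3.39% of the knockout cells. Thinning did not match cells for their UMIs before it, with which the class II share varied. In cells with 2000 to 4000 UMIs the levels were 41.5 per 1000 in wild type and 34.8 in the knockout. The coefficient of variation, the SD divided by the mean, was 0.403 against 0.422 in the knockout, and the Fano factor, the variance divided by the mean, was 8.84 and 5.87, so the relative spread was similar at a different level. Among single members the coefficient of variation in wild type and the knockout was 0.439 and 0.490 for H2-Aa, 0.468 and 0.562 for H2-Ab1, 0.501 and 0.529 for H2-Eb1 and 0.537 and 0.699 for Cd74.

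**Figure D4:**
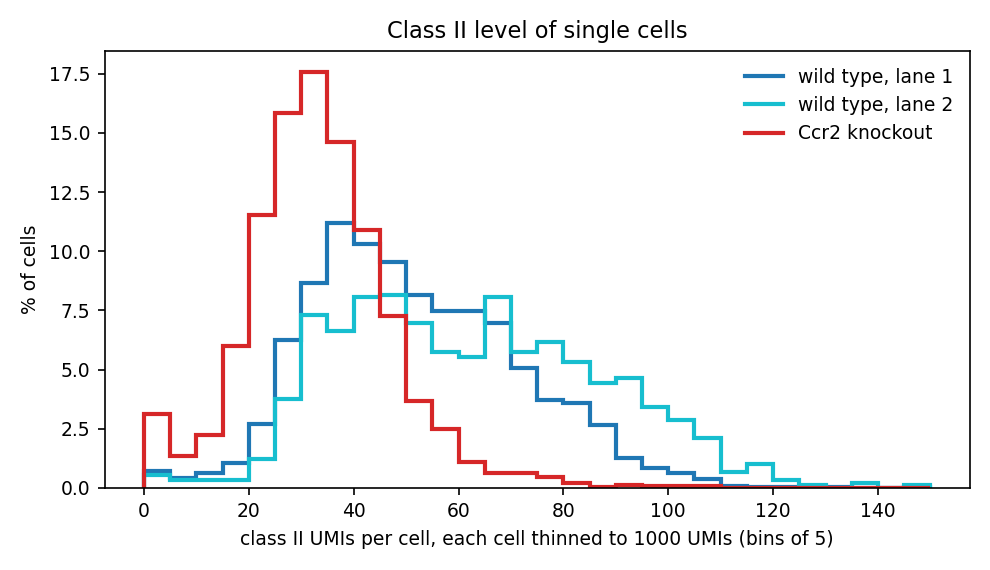
Share of cells (%) by the class II sum of each cell thinned to 1000 UMIs, in bins of 5 UMIs, for each wild-type lane and the knockout. The knockout peaks between 25 and 40 UMIs with a small group near 0, and the lanes reach higher values, with 61.9 UMIs per cell on average in lane 2.

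A small group of cells had little class II transcript in spite of the sort. Fewer than 10 class II UMIs of 1000 were found in 32 wild-type cells (1.06%) and 108 knockout cells (4.47%), of which 3 and 23 had none. Macrophage markers were low in these cells as well, with medians of 1 and 0 UMIs, against 13 and 11 in the other cells. Plasma cell markers averaged 47.9 UMIs in the wild-type and 22.3 in the knockout cells of this group, and red cell markers 29.8 and 62.1, but the medians of both lists were 0. At least 3 plasma cell UMIs were found in 28.1% of the wild-type and 11.1% of the knockout cells of the group, and at least 3 red cell UMIs in 3.12% and 7.41%. Among cells with at least 1 C1q UMI and without a signature of another cell type (2932 wild-type and 2486 knockout cells), the summed log2 ratio was -0.70, close to the -0.73 over all cells.

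The 4 abundant members varied together from cell to cell. Pearson's r of log2(UMIs + 1) over thinned cells was 0.55 to 0.63 for the 6 pairs among Cd74, H2-Aa, H2-Ab1 and H2-Eb1 in wild type (3015 cells) and 0.43 to 0.53 in the knockout (2416 cells). H2-Ab1 with Cd74 was the highest pair in wild type (0.63) and the lowest in the knockout (0.43), while H2-Aa with H2-Eb1 was the highest in the knockout (0.53). H2-DMa and H2-DMb1 had r between 0.10 and 0.23 with these 4 genes. The 21 pairs with Ciita, H2-DMb2 or H2-Oa lay between -0.05 and 0.06, which in counts this sparse is no finding. Over all 36 pairs the median was 0.04 in each library. The cells of a library share its free RNA but differ in UMIs per cell, with which the class II share varied. Thinning fixes the total per cell and does not match cells for their UMIs before it, so these values are descriptions.

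Beyond the members, the genes whose cell-to-cell pattern was most like the class II sum were led by Apoe and the C1q genes. Likeness was the lowest r over lane 1, lane 2 and the knockout, among 1076 genes with at least 0.1 UMI per thinned cell. Apoe, the lipid carrier, led with r of 0.58, 0.59 and 0.59 in lane 1, lane 2 and the knockout. It was followed by C1qc (lowest r 0.39), Lyz2 (0.38), C1qa (0.38), C1qb (0.37), Tmsb4x (0.33), Ftl1 (0.32), Ctss (0.30), Tyrobp (0.25) and Fcer1g (0.24). Cells were not matched for their UMIs before thinning, and the part of depth in these r values was not tested. These 10 genes were picked for likeness in the same cells. Of them 9 were lower in the knockout, beside 2789 of all 7401 genes past the minimum. The log2 ratios of the 9 ran from -1.45 (Lyz2) to -0.19 (Ftl1), and C1qc was higher (0.19). Jchain, a plasma cell gene, was least like the class II sum (highest r -0.16), followed by Ptma (-0.10), Zfp36l1 (-0.09), Rpsa (-0.09) and Xbp1 (-0.09).

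Ccr2 is a marker of monocytes and of cells that have lately arisen from them, and class II was examined over its UMI classes within wild type. Cells were thinned to 2000 UMIs and grouped by 0, 1, 2 or at least 3 Ccr2 UMIs (1980, 412, 215 and 261 cells). Monocyte markers, a list that includes Ccr2 itself, rose over these classes from 0.385 to 1.85, 3.68 and 5.52 UMIs per cell, and the 3 C1q genes fell from 25.5 to 19.8, 17.6 and 17.9. In these thinned cells the class II sum did not follow either course. It was 113 ± 43.0 UMIs (mean ± SD over cells) without a Ccr2 UMI, 102 ± 39.0 with 1, 105 ± 40.8 with 2 and 112 ± 43.0 with at least 3. In lane 1 the means were 105, 98.5, 98.0 and 105, and in lane 2 132, 110, 124 and 141. Both lanes were lowest at 1 or 2 Ccr2 UMIs and close to their starting level or above it in the highest class. The sort selected for surface class II and against Ly6C, which limits the Ccr2-positive cells that could enter. Its part in this course was not tested. The 1595 knockout cells thinned to the same total had 72.5 ± 28.4 class II and 17.02 C1q UMIs, with a median of 3380 UMIs before thinning, below that of the wild-type classes. Their class II level was below that of every wild-type class in both lanes. Their C1q level was near that of the highest Ccr2 class in lane 1 (16.5) and below it in lane 2 (23.1). The classes were not matched for UMIs before thinning. With Ccr2 UMIs counted before thinning, wild-type cells of 4000 to 6000 UMIs with at least 3 had 45.9 class II and 8.13 C1q UMIs per 1000. Those with none had 56.5 and 13.1. Both sums were lower with at least 3 Ccr2 UMIs in each of the 4 ranges from 2000 to 8000 UMIs.

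**Figure D5:**
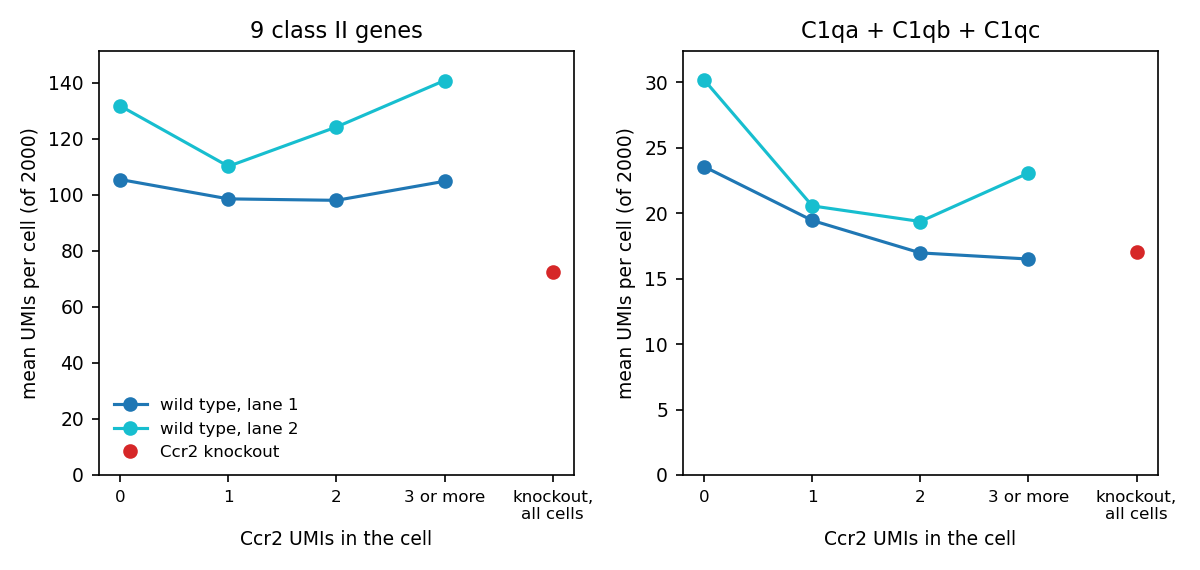
Mean UMIs per cell, each cell thinned to 2000 UMIs, of the 9 class II genes (left) and of C1qa, C1qb and C1qc (right) in wild-type cells by Ccr2 UMIs, for each lane, and in all knockout cells. The class II level of the highest Ccr2 class, 105 in lane 1 and 141 in lane 2, is near or above that of cells without Ccr2, whereas C1q is lower there. The classes are not matched for UMIs per cell before thinning.

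Single members differed somewhat in their course over the Ccr2 classes. H2-Eb1 was at 19.9, 19.6, 20.2 and 22.0 UMIs per cell in the classes of 0, 1, 2 and at least 3 Ccr2 UMIs, highest in the last. H2-DMa was at 2.15, 2.06, 2.20 and 2.38 and H2-Aa at 21.9, 20.7, 21.3 and 22.6, both also highest in the last. H2-Ab1 was at 25.8, 23.1, 23.4 and 24.6 and Cd74 at 41.5, 34.6, 36.3 and 38.8, both highest without Ccr2. The last point did not hold in lane 2, where H2-Ab1 was at 30.02 without Ccr2 and 30.25 in the last class and Cd74 at 49.2 and 51.6. Over both lanes H2-Aa per H2-Ab1 rose from 0.834 (0.828 to 0.839) to 0.872, 0.879 and 0.898 (0.882 to 0.915), which stayed below the 1.14 of the knockout. Ccr2 classes differed in depth before thinning, with medians of 6121, 7513, 7225 and 6967 UMIs. For ranges of UMIs per cell, Ccr2 UMIs were counted before thinning, so these groups are not the classes of the thinned cells. Within a range, cells without a Ccr2 UMI were the wild-type cells with more class II. At 4000 to 6000 UMIs they had 56.5 per 1000 (395 cells), those with at least 1 Ccr2 UMI 46.0 (208 cells) and knockout cells 40.7 (444 cells). Wild-type cells with at least 3 Ccr2 UMIs had 35.1, 40.7, 45.9 and 59.1 in the 4 ranges from 2000 to 8000 UMIs. Those without Ccr2 had 40.7, 45.3, 56.5 and 65.0 in the same ranges. The log2 ratio of knockout cells to wild-type cells without Ccr2 was -0.32, -0.29, -0.47 and -0.76 in the 4 ranges from 2000 to 8000 UMIs. Against wild-type cells with at least 1 Ccr2 UMI it was -0.18, -0.046, -0.18 and -0.60. A cell without a Ccr2 UMI can still express the gene.

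Class II was finally compared between cells inside and outside marker gates, on cells thinned to 1000 UMIs and only where a gate held at least 50 cells of a library. Of 18 such pairs of a gate and a library, 11 had less class II inside the gate, 8 of 9 in wild type and 3 of 9 in the knockout. The 9 gates were not the same in each library, so these counts are not like for like. In wild type the differences of the Pf4, heat shock and Ccl24 gates had opposite signs in the lanes. The lowest level within wild type was that of 51 wild-type cells with cell cycle transcripts, at 40.0 ± 18.0 UMIs against 54.7 ± 21.9 in other cells, although these cells had more UMIs before thinning (median 9668). Cells with a UMI of the scavenger receptor Cd163 had 47.4 against 54.7 in wild type (110 cells) and 30.2 against 33.5 in the knockout (303 cells). Knockout cells of the gate on Thbs1, Plaur, Pgf and Vwa1 had 29.7 against 33.3 (157 cells). Cells with Timd4 and Cd4, markers of long-lived gut macrophages, had 35.0 against 33.0 in the knockout (83 cells), and wild type held too few (21). Wild-type cells with Cd209a had 56.6 against 54.4 (96 cells), and those with Ccr2 and Plac8 51.8 against 54.5 (124 cells). The knockout was below wild type in each of the 6 gates read in both libraries, and no gate of the knockout reached the level of any gate of wild type. Inside every such gate the difference from other cells was less than 1 SD over cells. Depth before thinning also differed. In wild type the median was 4698 UMIs in the Cd163 gate against 6202 outside, but 7231 in the gate on Ccr2 and Plac8 against 6085. In the knockout the gate on Thbs1, Plaur, Pgf and Vwa1 had 2323 against 2621. The part of depth in the gate differences was not tested.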

How the data were processed

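The authors deposited, for every cell and gene, raw UMI counts in whole numbers, without normalisation. Cell Ranger 3.0.1 and mm10 are named in the submitters' processing notes, and the 3′ v2 chemistry per the labels' protocols. The annotation used for counting is not given in the sources used here. Members, lists and gates were chosen with earlier results of these data known. The named genes were the 9 members, Ccr2, 2 further class II genes, fixed lists of pathway genes, and the genes ranked by likeness to the class II sum.

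Cells entered with 200 genes or more and a mitochondrial share of 10% or less, and UMIs were summed per library and scaled to 1000000 (CPM). Log2 ratios used a pseudocount of 1 CPM and genes with a mean of at least 10 CPM. Since the libraries differed in depth, values per cell came from cells thinned at random to 1000 UMIs, or 2000 UMIs for the Ccr2 classes. Thinning sets the total per cell but does not match cells for their UMIs before it. Sums carry exact Poisson intervals, ratios of sums counting intervals and shares Clopper-Pearson intervals, all at 95%. PCR duplicates are collapsed by UMIs, and the intervals say nothing of the spread between animals. With 1 library per genotype there is no test, and differences are read beside those between the 2 wild-type lanes. Doublets stayed in, because the automatic threshold of Scrublet (scanpy 1.11.5) marked only 1, 7 and 8 cells in lane 1, lane 2 and the knockout. An alternative removed the 36, 7 and 55 cells with the highest scores, an expected 0.8% per 1000 cells of a lane. Other alternatives changed the cell filter, depth, scaling, pseudocount, gene minimum and the lane used. Scripts were tested on simulated counts. Python 3.11.15, numpy 2.4.6, scipy 1.17.1 and pandas 2.3.3 were used. Gene positions are from GENCODE M21 (GRCm38) and promoter windows from RefSeq (GRCm38.p6).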

Additional observations from a re-analysis of the deposited data

Results flagged for a closer look

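The gate on the metallothionein genes Mt1 and Mt2 (at least 3 UMIs of 1000) had a class II difference from other cells of opposite sign in the libraries. Of the 6 gates read in both libraries 4 had opposite signs, and this was the 1 gate of them in which both wild-type lanes went the same way. The other gates were Pf4 (a difference of -0.046 class II UMIs within wild type and 0.863 within the knockout), heat shock genes (-0.589 and 0.888) and Ccl24 with Npl and H2-M2 (-0.768 and 2.55). In wild type the 62 cells in the gate had 4.69 fewer class II UMIs than other cells (a difference of -4.69; 49.8 ± 20.0 against 54.5 ± 22.0, mean ± SD over cells), with differences of -6.30 in lane 1 (38 cells) and -4.56 in lane 2 (24 cells). In the knockout the 210 cells in the gate had 2.19 more (35.0 ± 13.6 against 32.9 ± 14.0). Before thinning, the cells in the gate had a median of 5021 UMIs against 6148 in wild type and 3011.5 against 2558 in the knockout. The difference between the libraries was not tested, and the part of depth in it was not tested.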

How the results depend on the processing

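The summed log2 ratio of class II was below 0 under all 11 alternatives run for it. Beside the value of -0.73 it was -0.25 in cells with 2000 to 4000 UMIs, -0.76 with the stricter filter (500 genes, 5% mitochondrial UMIs), -0.70 in cells with C1q and no other signature, -0.72 and -0.61 after thinning to 1000 and 2000 UMIs, -0.74 as a mean share over cells, -0.64 and -0.94 against lanes 1 and 2, -0.92 with median-of-ratios size factors and -0.84 with totals without mitochondrial, ribosomal and haemoglobin genes. The median of the members (-0.66) was -0.22, -0.63, -0.61, -0.58, -0.60, -0.57, -0.82, -0.84 and -0.71 under the same alternatives in that order, leaving out the stricter filter (-0.64), and -0.61 without a gene minimum. The number of members at least 1.5-fold lower, 5, became 1 in cells with 2000 to 4000 UMIs, where the cause was not tested, and was 4 to 6 under the others.

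H2-Aa, H2-Ab1, H2-Eb1, H2-DMa, H2-DMb1 and Cd74 were lower in the knockout under all 12 alternatives run for single genes, H2-DMa at least 1.5-fold in all 12 and H2-Ab1 in 11. Ciita was higher in 9 and lower in 3 of them, from -0.15 with median-of-ratios size factors to 0.30 after thinning to 1000 UMIs. H2-DMb2 was at 0.01 after thinning to 1000 UMIs. H2-Aa per H2-Ab1 lay between 1.12 and 1.16 in the knockout and 0.839 and 0.949 in wild type under the 8 alternatives that bear on it.

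The log2 ratio of the highest Ccr2 class to cells without Ccr2 (-0.01) was 0.041 after thinning to 1000 UMIs, 0.10 in lane 2, -0.052 without cells that had dendritic cell marker UMIs and -0.045 with classes from all UMIs. None of these alternatives matched the classes for UMIs per cell before thinning. Within ranges of UMIs per cell, wild-type cells with at least 3 Ccr2 UMIs before thinning were below those with none, as given above. The coefficient of variation became 0.383 after thinning to 2000 UMIs and 0.372 with the stricter filter in wild type, and 0.392 after thinning to 2000 UMIs in the knockout. Of 18 pairs of gate and library, 10 instead of 11 had less class II in the gate after thinning to 2000 UMIs, an alternative chosen after seeing the data. No paired analysis was possible because each genotype has 1 library. Depth limits H2-Oa, H2-DMb2 and Ciita most, with 80, 299 and 666 UMIs in the knockout.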

Other observations

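The cells removed by the filter also held class II transcripts. The 38 wild-type cells removed had 33.7 class II UMIs per 1000 and the 162 knockout cells removed 20.6, with median mitochondrial shares of 11.6% and 13.2%. The few cells with B cell markers and little C1q had 30.6 class II UMIs per 1000 in wild type (2 cells) and 19.0 in the knockout (8 cells), from 3.01 to 35.5 in single knockout cells. H2-DMb2 gave 16 of the 353 class II UMIs of these knockout cells and H2-DMb1 gave 4, the reverse of their order in the remaining knockout cells (283 and 4082 UMIs).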
